A study of Drosophila melanogaster with 2 samples.

Results

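The regions described here are the peaks of a CG7786-eGFP chromatin map that both replicates held but that ranked just too low for the authors' list of reproducible peaks. That list was made by the irreproducible discovery rate procedure (IDR), which keeps peaks whose ranks hold up between replicates. The dm6 IDR list held 4045 peaks, and these were the 4045 strongest entries of the relaxed list called on the pooled replicates. The repeated peaks below it were chosen by signal values, the authors' peak score: pooled ranks 4046 to 10000, with a summit within 200 bp of one among the 10000 strongest entries of replicate 2 and also of replicate 3, and no IDR summit within 200 bp. The rule kept 2235 of 5955 entries of those ranks, 37.5% (95% exact interval 36.3 to 38.8%), out of 30000 entries in the pooled list. Because ranks and signal values selected the members, they are given as a description and tested nowhere. Of the other 3720 entries, 1285 had a matching summit in replicate 2 only, 2031 in replicate 3 only and 316 in neither, while 88 lay within 200 bp of an IDR summit.

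The data came from 2 libraries of 1 group, labelled biological replicates 2 and 3. Both were made from pooled male and female embryos of Drosophila melanogaster, aged 0 to 24 h, of a transgenic line that stably expresses CG7786 with GFP at its C terminus. Whole embryos of that age mix all tissues and stages, so a weak peak in few cells and a weak peak in many cells cannot be told apart. The labels state an anti-GFP antibody in the description and CG7786 in the antibody field. Chromatin was sonicated to 200 to 800 bp. No other condition was included, so the comparisons below set the repeated peaks against IDR peaks, against the other entries of the same pooled ranks and against all bases of the chromosome arms. Shares carry exact binomial intervals and their differences Newcombe intervals, all at 95%; these cover counting error only, since peaks are not replicates of a condition. The number of reads is unknown.

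CG7786 encodes a predicted basic leucine zipper (bZIP) protein of the PAR class, named after the proline and acidic amino acid rich region of its vertebrate relatives. PAR bZIP proteins bind DNA as dimers at a palindromic site, and in flies the best known of them is Pdp1, which acts in the circadian clock, growth and muscle. A peak list is a ranking, and IDR draws a cut on it; entries under the cut stay in the relaxed lists alone.

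Sequences of 7 repeated peaks are shown because they hold the letters that the comparisons below turn on. Each was the strongest or second strongest member, among those whose sequence could be printed, with the site within 50 bp of the summit. All are read on the plus strand of dm6, 5′ to 3′, from the Release 6 genome of RefSeq, inside the 200 bp summit window; bases in annotated UTRs were trimmed from the ends. Capitals mark the site for which each peak was chosen. It is the motif 1 binding protein site GGTCACAC in gukh, which encodes a synaptic scaffold partner of Dlg. It is the GAGA site, CTCTCTC on this strand, in introns of loco, a glial regulator of G protein signalling, and of trx, the Trithorax histone methyltransferase gene. It is the DNA replication-related element (DRE) TATCGATA upstream of PhKgamma, a phosphorylase kinase subunit gene, and of rno, a PHD finger protein gene. It is TTACATAA, the PAR bZIP site TTATGTAA read on the other strand, at alpha-Man-Ia, a mannosidase of N-glycan processing, and at Prx4, a peroxiredoxin gene. The alpha-Man-Ia sequence also holds the letters GGTCACAC, left in small letters.
gukh, 3R:18983835-18984024: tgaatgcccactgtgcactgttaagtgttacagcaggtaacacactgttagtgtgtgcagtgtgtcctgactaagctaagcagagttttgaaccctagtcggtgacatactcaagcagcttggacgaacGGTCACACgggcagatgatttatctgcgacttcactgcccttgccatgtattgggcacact
loco intron, 3R:22624783-22624982: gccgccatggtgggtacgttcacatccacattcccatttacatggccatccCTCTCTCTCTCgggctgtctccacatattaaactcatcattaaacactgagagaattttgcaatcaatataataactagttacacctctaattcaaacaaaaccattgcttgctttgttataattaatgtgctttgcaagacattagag
trx intron, 3R:14277883-14278082: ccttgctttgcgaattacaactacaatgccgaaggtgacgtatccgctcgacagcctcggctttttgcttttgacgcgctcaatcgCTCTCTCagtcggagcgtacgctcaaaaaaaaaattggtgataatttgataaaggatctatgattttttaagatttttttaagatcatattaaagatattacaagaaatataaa
PhKgamma, X:11694954-11695136: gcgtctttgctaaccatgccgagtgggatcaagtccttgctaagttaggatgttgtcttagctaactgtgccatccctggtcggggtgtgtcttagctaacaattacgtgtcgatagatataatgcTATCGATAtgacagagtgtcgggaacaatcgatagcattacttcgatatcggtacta
rno, 3L:199773-199972: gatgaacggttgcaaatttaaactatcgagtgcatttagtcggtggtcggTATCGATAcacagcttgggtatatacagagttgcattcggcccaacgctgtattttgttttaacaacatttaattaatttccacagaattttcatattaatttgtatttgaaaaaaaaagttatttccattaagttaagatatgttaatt
alpha-Man-Ia, X:10325959-10326154: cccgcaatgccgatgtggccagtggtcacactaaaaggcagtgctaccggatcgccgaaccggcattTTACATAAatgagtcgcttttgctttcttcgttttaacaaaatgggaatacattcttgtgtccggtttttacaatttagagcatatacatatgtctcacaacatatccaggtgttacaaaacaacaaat
Prx4, 3L:3042773-3042952: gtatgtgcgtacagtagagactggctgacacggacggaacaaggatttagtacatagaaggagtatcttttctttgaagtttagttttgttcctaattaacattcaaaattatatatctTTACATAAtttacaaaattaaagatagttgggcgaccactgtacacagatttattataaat

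The repeated peaks formed a narrow band of signal. Their pooled signal value ranged from 41.5 to 79.5 with a median of 62.8, while IDR peaks ranged from 79.5 to 2909 with a median of 130.1. All 2235 intervals were 404 bp wide. In replicate 2 the matched entries had ranks from 357 to 10000 with a median of 5897, and signal values with a median of 28.5. In replicate 3 the ranks ran from 157 to 9993 with a median of 6230, and the median signal value was 33.5. The lists were called separately, so ranks and not signal values are compared between replicates. Most members ranked past the size of the IDR list in each library: 1688 (75.5%) did so in both replicates, while 390 ranked 4045 or better in replicate 2, 185 in replicate 3 and 28 in both. The authors' −log10 q-value had a median of 2.61 in the pool, 1.28 in replicate 2 and 2.82 in replicate 3. A value of 2 or more was reached by 1585 members in the pool, by 488 in replicate 2 and by 1728 in replicate 3.

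**Figure D1:**
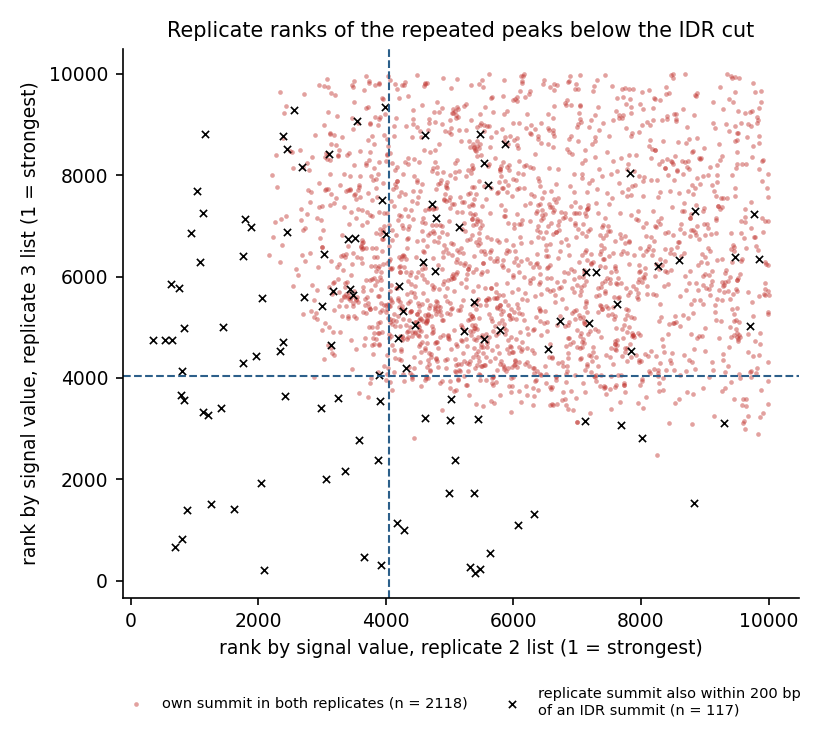
Rank of each of the 2235 repeated peaks in the list of replicate 2 (x axis) and of replicate 3 (y axis), where 1 is the strongest entry. Dashed lines stand at rank 4045, the size of the IDR list; red points are the 2118 members with a summit of their own in both replicates, and black crosses the 117 whose replicate summit also lay within 200 bp of an IDR summit, which fill most of the lower left corner.

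Within the 200 bp that the rule allows, the replicate summits lay close to the pooled summit. The replicate 2 summit lay a median of 16 bp from it and the replicate 3 summit 13 bp. Both replicate summits were within 50 bp of the pooled summit for 1265 members (56.6%). The pooled list was called on the same replicates, so its summits are not independent of theirs. Measured directly, the summits of replicates 2 and 3 lay a median of 42 bp apart. The upper quartile of this distance was 91 bp and its highest value 342 bp. Within the band, the ranks in the 2 replicates had a Spearman's rho of 0.0038 across the 2235 members; the rule bounds both ranks and the pooled rank, so this describes the selected window and carries no p. The share of entries that were repeated depended on the pooled rank. It was 79.8% at pooled ranks 4046 to 5000, 64.5% at 5001 to 6000, 44.8% at 6001 to 7000, 23.1% at 7001 to 8000 and 7.45% at 8001 to 10000. The other entries thus lay lower in the ranking than the members, and comparisons with them as a whole are not matched for rank.

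The replicates stood apart in what they held alone at these ranks. Entries matched in replicate 2 only had a median GC content of 46% in the 200 bp around the summit, and 15.7% of them (202 of 1285) lay in coding exons. Entries matched in replicate 3 only had a median GC content of 38%, and 2.90% (59 of 2031) lay in coding exons. The repeated peaks had a median GC content of 39.5%, IDR peaks 37% and all 200 bp windows of the arms 42%.

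The strongest repeated peaks directly adjoined the weakest IDR peaks in pooled signal. The first, at 2R:17869980-17870383 in an intron of Mapmodulin, had a pooled signal value of 79.52, and the last 3 IDR entries, near CG34303, Mpcp2 and Fim, had 79.58, 79.54 and 79.54. In the replicates the Mapmodulin peak was uneven, with signal 49.2 and rank 2367 in replicate 2 but 31.8 and rank 6621 in replicate 3. An intron peak of Kr-h1, a zinc finger gene of the juvenile hormone response, at 2L:6088860-6089263 leaned the other way, with 22.6 (rank 9616) in replicate 2 and 57.2 (rank 3150) in replicate 3. Only replicate 2 ranked the Mapmodulin peak inside the size of the IDR list, and only replicate 3 the Kr-h1 peak. A peak 1035 bp upstream of kon, which encodes a transmembrane proteoglycan used in muscle attachment, lay at 2L:18504811-18505214 with 33.4 (rank 4406) in replicate 2 and 47.1 (rank 4052) in replicate 3, so both replicates placed it next to the size of the IDR list. An intron peak of dlg1, a scaffold of cell junctions and synapses, had 27.0 (rank 6603) in replicate 2 and 52.9 (rank 3482) in replicate 3.

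CTCF, the gene of an insulator protein, carried the strongest promoter member. Its summit at 3L:7356324-7356727 lay 187 bp inside the gene, with a pooled signal value of 79.5, 36.8 (rank 3756) in replicate 2 and 48.4 (rank 3902) in replicate 3. Both ranks were inside the size of the IDR list, as for 5 other members with summits of their own. Of these, gukh had ranks 3717 and 3627 in replicates 2 and 3, Hnf4, a nuclear receptor gene of lipid and sugar metabolism, 3575 and 3700, hang, a zinc finger gene known for ethanol tolerance, 3775 and 3995, and ash2, a Trithorax group gene, 4007 and 3956. Their pooled signal values were 76.8, 75.0, 76.5 and 76.4. The other promoters among the 10 strongest members were those of dbr (signal 35.9 in replicate 2 and 38.1 in replicate 3) and CREG (30.8 and 49.9). The remaining members of the 10 lay in introns of Nt5b (32.8 and 44.9) and tna (29.3 and 48.0), and between genes near CG12782 (34.2 and 44.4). The 5 strongest intergenic members also took in peaks 15168 bp from the TSS of CG3690 (30.2 and 48.9), 22030 bp from that of Awh, a LIM homeobox gene (31.9 and 44.4), and 15338 bp from that of Myc, the growth regulator (30.8 and 46.2). In replicate 2 these 3 ranked 5261, 4782 and 5091, and in replicate 3 they ranked 3855, 4385 and 4143, so none was near the top of either list.

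The widest gaps between the replicate ranks, given as a description of values that chose the members, were in introns of ps, an RNA-binding protein gene (ranks 1162 and 8817 in replicates 2 and 3), and chb, a microtubule regulator gene (8829 and 1527). In both cases a replicate summit also lay within 200 bp of an IDR summit. The 5 widest gaps among members with summits of their own were at promoters, where 45.6% of all such members lay. The peak at tara had 49.6 (rank 2336) in replicate 2 and 23.8 (rank 9636) in replicate 3. That at trbl, a pseudokinase gene that restrains mitosis, had ranks 2725 and 9599, that at CG5292 2442 and 9357, and that at CG6664 2952 and 9789. Tsp42Ee, a tetraspanin gene, was the reverse case, with 22.4 (rank 9842) in replicate 2 and 60.9 (rank 2885) in replicate 3. Over all 2235 members, 1194 ranked better in replicate 2 and 1040 in replicate 3.

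A small share of the members owed their match to a summit that also belonged to an IDR peak. For 117 members (5.23%) the nearest replicate summit lay within 200 bp of an IDR summit in replicate 2 or 3, and for 46 in both. Nearly all of these, 115 of 117, were within 250 bp of the IDR summit, just past the 200 bp the rule excludes. Farther away, over 250 and up to 500 bp, there were 8 members of any kind. The 5 members with the best rank in their worse replicate were all of this sort: at Aef1 (ranks 695 and 660 in replicates 2 and 3), CG10375 (810 and 816), GIIIspla2 (879 and 1388), CG31937 (1259 and 1506) and in an intron of Gclc, a glutathione synthesis gene (1628 and 1416). Their pooled signal values were only 45.4 to 56.8. The 3 weakest members, at Sur-8, CG10657 and cic, a gene for a repressor downstream of receptor tyrosine kinases, were of the same kind, with pooled signal values of 41.6, 41.6 and 41.5. So were 33 of the 149 members (22.1%) below pooled rank 8000, and 84 of the 2086 (4.03%) at rank 8000 or better. In addition, 60 members shared a replicate summit with another member. The next pooled entries, at rank 10001 to 10003, had a signal value of 41.5 and lay near CG8468, Socs36E and RhoGAP18B. At the edge of the distance rule, 282 entries that met every other condition had their replicate 2 summit over 100 and up to 200 bp away and counted, and 185 had it over 200 and up to 300 bp away and did not; in replicate 3 these numbers were 184 and 126.

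Promoters held the largest share of the repeated peaks, though less than of IDR peaks. A summit within 500 bp of a transcription start site (TSS) was found for 1035 repeated peaks, 46.3% (44.2 to 48.4%), against 39.6% of the other entries of the same ranks and 55.3% of IDR peaks. The difference was 6.69 percentage points from the other entries (4.09 to 9.28) and -8.99 points from IDR peaks (-11.6 to -6.41). The other entries were not matched for rank. At pooled ranks 4046 to 5000 the share was 47.4% of members. It was 52.6% of 19 entries in replicate 2 only and 49.4% of 158 in replicate 3 only. At 5001 to 6000 these were 47.0, 44.7 and 50.0%, and at 6001 to 7000 43.8, 36.0 and 42.4%. At 7001 to 8000 they were 43.3, 40.2 and 40.6%, and at 8001 to 10000 50.3, 35.5 and 38.3%. Members exceeded both sets only from rank 6001 down. Of the 149 members at 8001 to 10000, 33 had a replicate summit also within 200 bp of an IDR summit. Among all 117 members of that kind, 59.8% were TSS-proximal. Of the 116 members at 8001 to 10000 with summits of their own, 54 (46.6%) were TSS-proximal. The TSS-proximal share of all members was 3.42 times the 13.6% of arm bases so placed. Introns held 779 members (34.9%) against 31.8% of IDR peaks, and intergenic sequence 300 (13.4%) against 10.8% of IDR peaks. The differences were 3.04 points (0.61 to 5.49) and 2.64 points (0.97 to 4.38). Of the remaining members, 26 lay in 3' UTRs, 23 in 5' UTRs and 19 in other exons. In 4 equal groups of members from the strongest to the weakest, the TSS-proximal share was 46.7, 46.9, 46.1 and 45.6%. In the same division of IDR peaks it was 62.5, 55.3, 53.4 and 50.0%. The median pooled signal, a value that chose the members and so only a description, was 62.9 at promoters, 62.9 in introns and 63.4 between genes. It was 62.5 in 3' UTRs, 59.8 in 5' UTRs and 57.5 in coding exons.

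**Figure D2:**
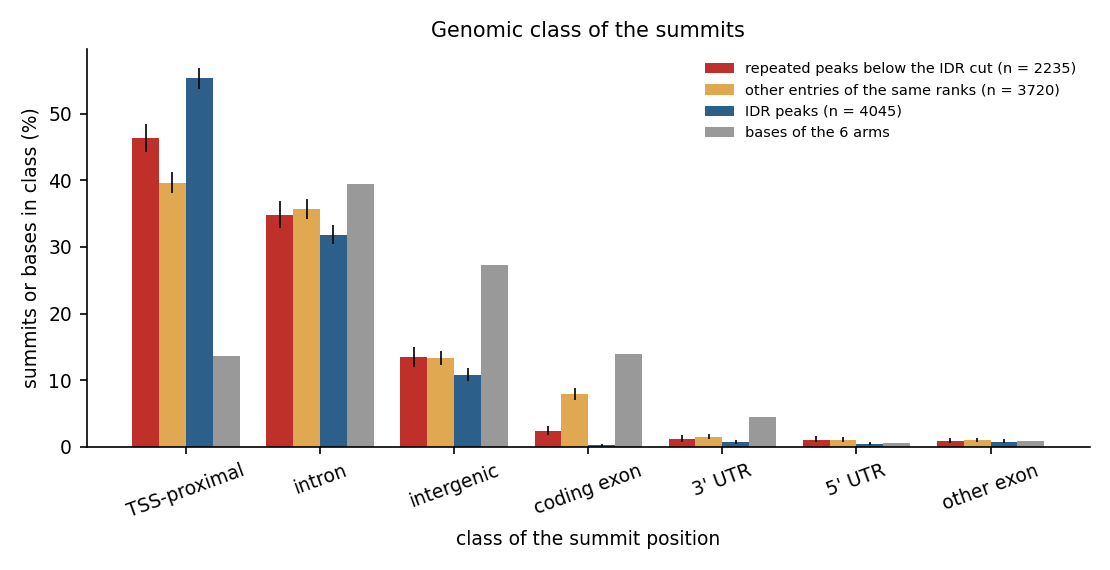
Share of summits in each genomic class (y axis, %) for the 2235 repeated peaks, the 3720 other entries of the same pooled ranks and the 4045 IDR peaks, with the share of arm bases in grey; error bars are exact 95% intervals. Without matching for rank, repeated peaks stood between the other entries and IDR peaks at promoters (46.3, 39.6 and 55.3%) and in coding exons (2.37, 7.90 and 0.22%).

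Coding exons away from any TSS held 53 repeated peaks, 2.37% (1.78 to 3.09%), against 7.90% of the other entries and 0.22% of IDR peaks (9 of 4045). The difference from IDR peaks was 2.15 points (1.56 to 2.87). It depended on how the rule was set: with the 6000 strongest entries of each replicate the share was 0.35%, near that of IDR peaks, with 15000 it was 4.74%, and without replicate 3 it was 7.24%. Among the other entries, those matched in replicate 2 only had the 15.7% given above and those in replicate 3 only 2.90%, and the part of the replicate 2 library in the result was not tested. These sets were not matched for rank. Over the rank ranges named earlier, from 4046 to 5000 down to 8001 to 10000, members had 0.66, 2.64, 3.35, 4.33 and 4.03%. Entries in replicate 3 only had 0.63, 0, 1.49, 1.85 and 5.34%, and those in replicate 2 only 5.26, 6.58, 13.2, 15.3 and 17.9%. By rank the share was 0.54, 1.97, 3.23 and 3.76% in 4 equal groups of members from the strongest to the weakest, and between 0.20 and 0.30% in all 4 groups of IDR peaks. Median GC content was 38.5, 38.5, 40 and 41.5% over the same groups of members. As a description of the ranks that chose them, the coding members had a median rank of 5611 in replicate 2 and a median rank of 8533 in replicate 3; their median GC content was 57%. Of the 53, 46 (86.8%) ranked better in replicate 2, against 387 of 779 (49.7%) for intron members and 144 of 300 (48.0%) for intergenic ones. The 4 strongest lay in exons of Ubr1, a ubiquitin ligase gene of the N-degron pathway, RpS3, a ribosomal protein gene, scrib, an epithelial polarity gene, and CG7530. RpS3 had 39.5 (rank 3372) in replicate 2 and 28.3 (rank 7681) in replicate 3. The ranks in replicates 2 and 3 were 3746 and 7207 for CG7530, 3793 and 4780 for Ubr1, and 5213 and 4498 for scrib, so scrib leaned the other way.

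**Figure D3:**
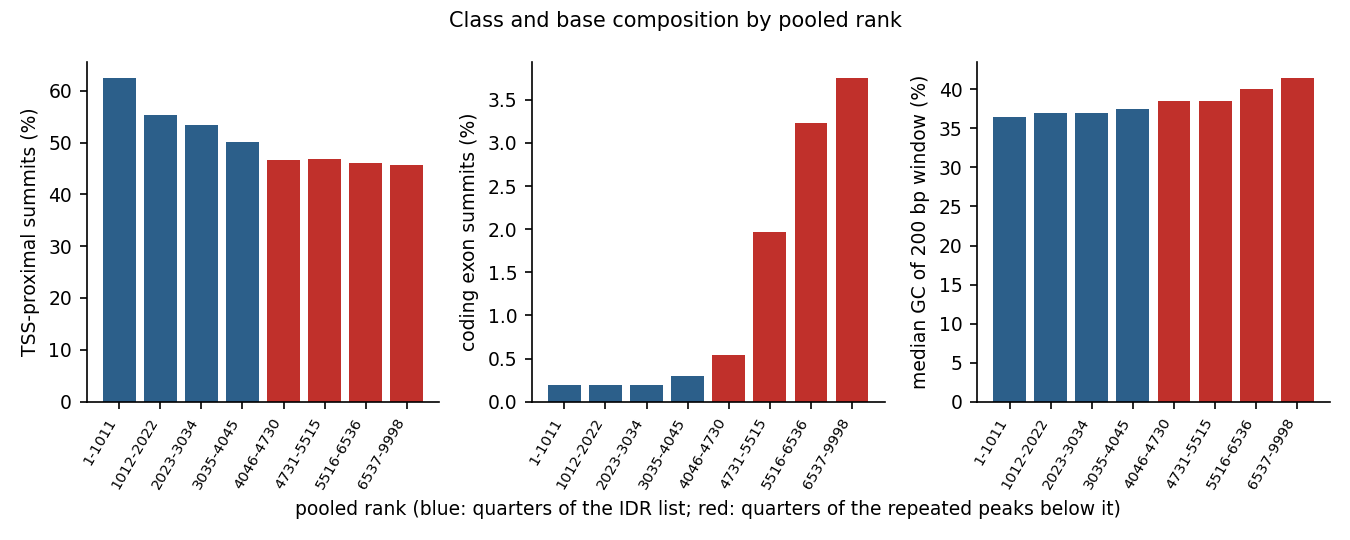
TSS-proximal share, coding exon share and median GC content of the 200 bp summit window (y axes, %) along the pooled ranking (x axis), for 4 equal groups of IDR peaks in blue followed by 4 equal groups of repeated peaks in red. The TSS-proximal share was 45.6 to 46.9% in the 4 groups of repeated peaks, while the coding share reached 3.76% and median GC content 41.5% in the weakest of them.

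At promoters, repeated peaks lay at opposed gene pairs less often than IDR peaks. Of the 1035 TSS-proximal members, 236 (22.8%) had TSSs of protein-coding genes on both strands within 500 bp, as at divergent gene pairs, against 36.3% of IDR peaks, a difference of -13.5 points (-16.6 to -10.1). A TSS of 1 protein-coding gene only was found for 712 members (68.8%), against 57.8% of IDR peaks, and no protein-coding TSS for 59. The other entries of the same ranks had genes on both strands at 19.3% of their promoter summits, 3.47 points fewer than the members (0.24 to 6.75). By rank, the share with genes on both strands was 25.3, 25.6, 19.1 and 21.2% over the 4 groups of members, and 37.8, 39.4, 33.1 and 34.2% over those of IDR peaks, so the lowest IDR group stood above the highest member group.

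Summits of repeated peaks lay past the start site more often than those of IDR peaks, while the share close to it on either side differed by less than counting error. Where a protein-coding TSS was within 500 bp, 641 of 976 members (65.7%) had their summit upstream of the nearest one, against 58.5% of the other entries and 81.9% of IDR peaks; the difference from IDR peaks was -16.2 points (-19.7 to -12.9). The median position was -43 bp for members, -26 bp for the other entries and -79 bp for IDR peaks. Within 100 bp on either side lay 53.2% of the members and 52.3% of IDR peaks, a difference of 0.86 points (-2.92 to 4.62). By rank, the upstream share was 73.2, 67.9, 66.8 and 54.6% in the 4 groups of members, and 83.8, 85.6, 81.4 and 76.0% in those of IDR peaks, where it was highest in the second group. The TSS-proximal members included 70 whose replicate summit also lay within 200 bp of an IDR summit, a kind more frequent at low pooled ranks. The upstream share without them was not computed.

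**Figure D4:**
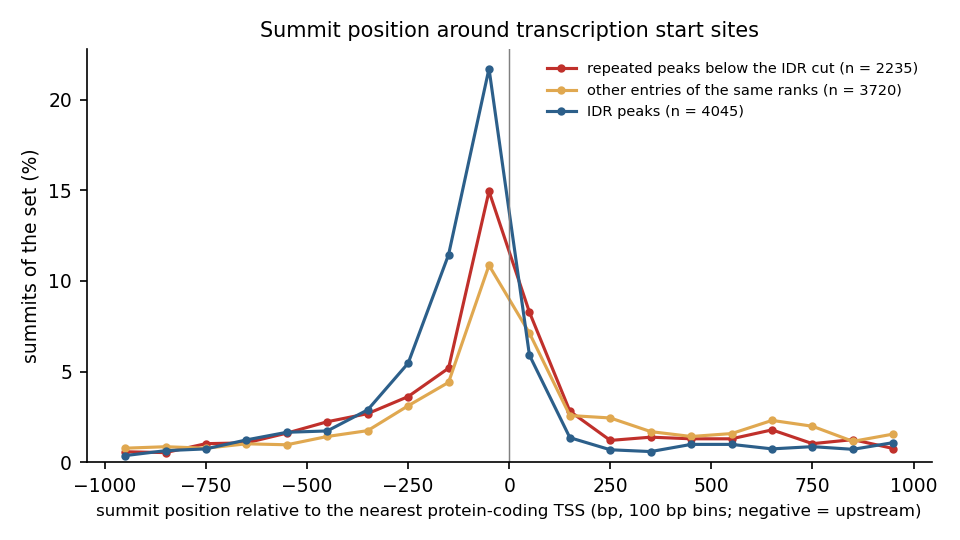
Position of summits relative to the nearest protein-coding TSS (x axis, bp, 100 bp bins, negative upstream) as a share of all summits of each set (y axis, %). In the 100 bp upstream of the TSS lay 14.9% of repeated peaks, 10.9% of the other entries of the same ranks and 21.7% of IDR peaks; in the 100 bp downstream lay 8.28, 7.12 and 5.91%.

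The letters under the summits differed in the same division. Sites were searched on both strands in 200 bp windows, 18 motifs in all, and no word of one motif lies inside a word of another. Of 90 intervals of differences computed, 5 for each motif, 21 excluded 0. The 5 for a motif reuse the same members and mostly the same IDR peaks, so the 21 are not separate results. The GAGA site GAGAGAG, bound by the Trl protein among others, was in 132 of the 2235 members, 5.91% (4.96 to 6.96%), against 4.22% of the other entries, 3.86% of IDR peaks and 2.43% of all 200 bp windows of the arms. The other entries were not alike: those matched in replicate 2 only held it in 5.29% (4.13 to 6.66%), an interval that takes in the members' share, and those in replicate 3 only in 3.25% (2.52 to 4.12%). Without replicate 2 the members' share was 4.64%. Most member sites lay at promoters: 79 of 1035 TSS-proximal members (7.63%) held it, against 4.11% of TSS-proximal IDR peaks, a difference of 3.52 points (1.80 to 5.45), and 4.65% of 200 bp windows at all protein-coding TSSs. At distal summits the shares were 4.42% of members and 3.54% of IDR peaks, a difference of 0.88 points (-0.52 to 2.39). The loco and trx windows above belong to the distal ones. Of member windows with the site, 63 of 132 (47.7%) held it within 50 bp of the summit, the middle 100 bp of the 200 bp window, against 49 of 156 (31.4%) in IDR peaks. For the letters TATAAA these shares were 50.1 and 52.8%, so it was the IDR share that was low. The member share showed no gathering of GAGA sites at the summit.

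The motif 1 site GGTCACAC, bound by M1BP at promoters of housekeeping genes and seen in the gukh sequence above, was in 73 TSS-proximal members (7.05%) against 4.56% of TSS-proximal IDR peaks, a difference of 2.49 points (0.80 to 4.39), and 5.68% of all protein-coding TSS windows. In IDR promoters the share was 2.06, 3.58, 6.48 and 6.72% from the strongest to the weakest group, and in member promoters 6.90, 8.02, 7.00 and 6.27%. The share of members was therefore close to that of the adjoining IDR peaks. For the GAGA site the IDR groups had 4.43, 3.22, 4.81 and 3.95% and the member groups 6.51, 9.92, 8.17 and 5.88%, with no such run within the IDR list.

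The DRE site TATCGATA, a core promoter element of housekeeping genes, was less frequent: 79 members (3.53%) held it against 2.90% of the other entries and 4.94% of IDR peaks, a difference from IDR peaks of -1.41 points (-2.40 to -0.35). Among promoters alone the shares were 7.05% of members and 8.45% of IDR peaks (difference -1.40 points, -3.26 to 0.64), beside 6.44% of all protein-coding TSS windows. At distal summits they were 0.50% of members and 0.61% of IDR peaks. The letters TATAAA were in 25.1% of members, 22.7% of the other entries (15.4% of those in replicate 2 only and 27.3% in replicate 3 only) and 28.8% of IDR peaks. At promoters the difference from IDR peaks was -5.49 points (-8.62 to -2.24), where the median GC content was 41% in members and 37.5% in IDR peaks; the part of base composition in it was not tested.

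The site known for PAR bZIP proteins was rare in every set. The alpha-Man-Ia and Prx4 sequences above hold TTATGTAA, read as TTACATAA, and not TTACGTAA. Either word occurred in 50 members, 2.24% (1.66 to 2.94%), against 1.53% of the other entries, 1.95% of IDR peaks and 1.56% of arm windows. The difference was 0.70 points from the other entries (0.01 to 1.49) and 0.28 points from IDR peaks (-0.43 to 1.08). In 17 of the 50 member windows (34%) the site lay within 50 bp of the summit, the middle 100 bp of the window, and in 39 of 79 IDR windows (49.4%). Words that join a PAR and a C/EBP side, TTACGCAA, TTGCATAA and their reverse complements, were in 27 members (1.21%) against 2.15% of the other entries, 2.10% of IDR peaks and 2.25% of arm windows. That difference from IDR peaks was -0.89 points (-1.51 to -0.22). At distal summits the E-box CAGCTG, a site of basic helix-loop-helix factors, was in 8.25% of members and 5.86% of IDR peaks (2.39 points, 0.54 to 4.35), beside 8.12% of all distal windows.

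**Figure D5:**
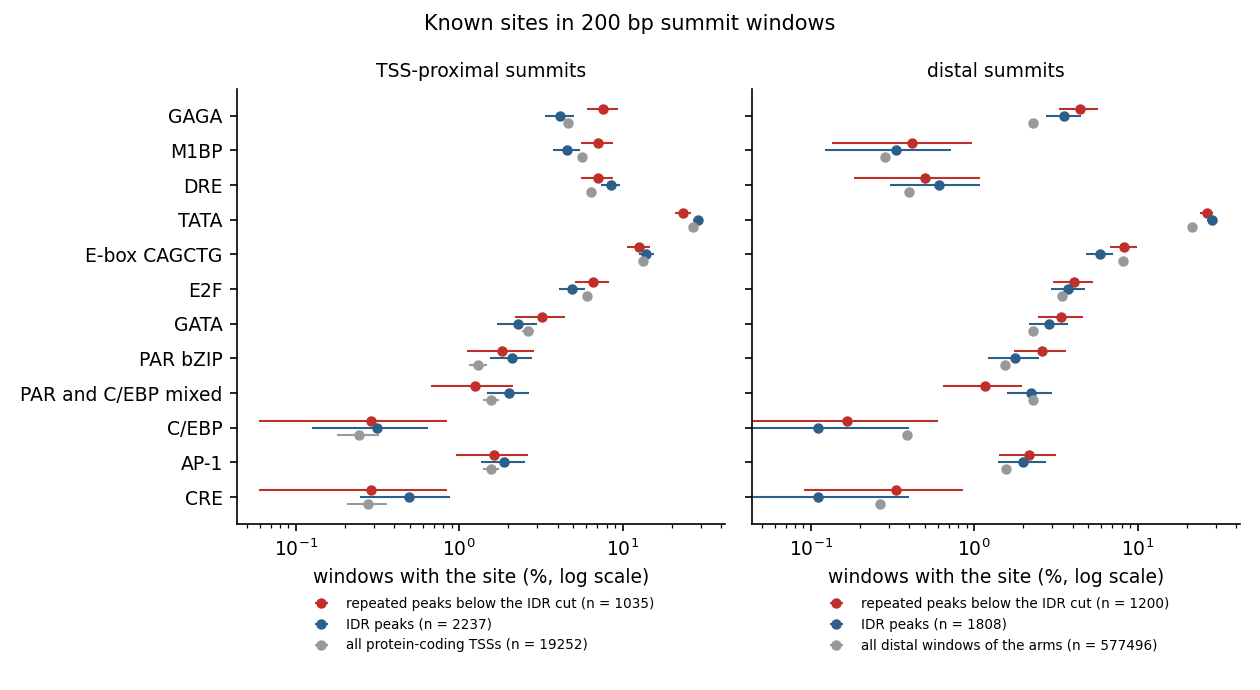
Share of 200 bp windows that hold each site (x axis, %, log scale) at TSS-proximal summits (left) and distal summits (right), for repeated peaks in red, IDR peaks in blue and all windows of the same kind in grey; bars are exact 95% intervals, and bars that reach below the axis are clipped. At promoters the red points lie above the blue ones for GAGA (7.63 and 4.11%) and M1BP (7.05 and 4.56%).

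Taking genes instead of peaks, 1168 of 13945 protein-coding genes (8.38%) had a TSS within 500 bp of a repeated peak, and 2715 (19.5%) had one within 500 bp of an IDR summit. Of the 1168, 943 genes (80.7% of these and 6.76% of all) had no IDR summit at any TSS, and 225 had both. Chromatin regulators, of the Polycomb and Trithorax groups and the remodelling complexes, had repeated peaks at 8 of 35 genes (22.9%, 10.4 to 40.1%) and IDR peaks at 17. They included ash2, osa of the Brahma complex, kis, a chromodomain remodeller (signal 25.1 in replicate 2 and 48.9 in replicate 3), and Iswi, a nucleosome spacing motor (34.3 and 37.4). Of the 8, 7 (87.5%) had no IDR summit. Cytoplasmic ribosomal protein genes had repeated peaks at 16 of 92 (17.4%, 10.3 to 26.7%) and IDR peaks at 55. RpL7A (45.8 in replicate 2 and 32.6 in replicate 3), RpLP1 (39.3 and 35.0), RpL28 (37.7 and 29.4) and RpS18 (25.9 and 44.0) were the strongest, and 11 of the 16 (68.8%) had no IDR summit. In both lists the interval of the share lay above the 8.38% of all genes. Genes with a repeated peak and no IDR summit were 20% of all 35 chromatin regulators (8.44 to 36.9%). They were 11.96% of all 92 ribosomal protein genes (6.12 to 20.4%), an interval that holds the 6.76% of all genes. These denominators include genes with an IDR summit, 48.6% and 59.8% of the 2 lists against 19.5% of all genes, which lowers the list shares more. The share among only the genes that lack an IDR summit was not computed. The interval that holds 6.76% therefore does not show that ribosomal protein genes without an IDR summit were like all genes. The lists were chosen with earlier results of these data known, and no list was tested. The intervals carry no allowance for the 28 lists looked at, nor for the number of TSSs of each gene. They are a description only.

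In every other list with a repeated peak, the interval of the share held the 8.38% of all genes. Genes of the germline and of piRNA silencing had repeated peaks at 5 of 26 (19.2%, 6.55 to 39.4%), all without an IDR summit. They were led by stau, an RNA-binding localization factor (25.4 and 45.2 in replicates 2 and 3), piwi (24.8 and 36.6), gcl (27.8 and 33.0) and the translational repressor gene pum (24.1 and 27.3). Insulator and promoter architecture genes had them at 4 of 18 (22.2%, 6.41 to 47.6%): CTCF, lola (26.1 and 48.5), pita (25.0 and 35.9) and Trl (36.8 and 24.9), of which CTCF alone had no IDR summit. Among bZIP genes, 3 of 19 (15.8%, 3.38 to 39.6%) had one: Pdp1 (28.3 and 38.8), kay, the fly Fos (31.1 and 41.5), and cnc, the stress regulator (25.4 and 38.2). The gene of CG7786 itself had no repeated peak and no IDR peak in its body or in the 2000 bp upstream. Ecdysone and nuclear receptor genes had 4 of 27 (14.8%, 4.19 to 33.7%), with tai (44.8 and 28.2), Hr39 (42.5 and 30.0), Eip74EF (27.3 and 37.9) and the receptor gene EcR (27.9 and 28.1).

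Mitochondrial ribosomal proteins had repeated peaks at 8 of 73 genes (11.0%), led by mRpS17 (28.3 in replicate 2 and 43.5 in replicate 3) and mRpL54 (25.2 and 47.1). Respiratory chain genes had 8 of 88 (9.09%), led by UQCR-14 (27.0 and 49.6) and SdhD (44.2 and 28.3). Rab, Vps, Sec and Arl genes of membrane trafficking had 9 of 92 (9.78%), led by Sec23 of the COPII coat (27.3 and 46.8) and Rab21 (36.1 and 39.5). The proteasome had 6.25% (3 of 48: Rpn12, Rpn8 and Prosalpha2), Mediator and general transcription factors 6.12% (3 of 49: MED31, Taf13 and TfIIFalpha), and translation factors 1.96% (1 of 51: eIF1, which shares its promoter peak with RpL28). Of signalling pathways, Notch genes had 16.0% (4 of 25: mam, pen-2, E(spl)m7-HLH and fng), receptor kinase genes 7.89% (3 of 38: the FGF ligands bnl and pyr, and InR) and Dpp genes 9.52% (2 of 21: shn and ush). Hippo genes had 10% (2 of 20: sd and ex), Wingless and Hedgehog genes 3.70% (1 of 27: ptc), insulin and Myc genes 4.17% (1 of 24: InR) and Toll and Imd genes 4.00% (1 of 25: Tab2). Cell cycle genes had 8.82% (3 of 34: grp, Rbf and fzy) and circadian clock genes 6.67% (1 of 15: Pdp1). These counts are small, so shares on either side of 8.38% cannot be told from it.

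The 3 tissue lists with repeated peaks had shares on both sides of that of all genes. Mesoderm and muscle genes had 9.68% (3 of 31: Tm1, Mef2 and sns), neuroblast and glial genes 6.90% (2 of 29: loco and insc) and synapse and ion channel genes 7.69% (2 of 26: the potassium channel genes Shab and eag). None was found at 119 odorant and gustatory receptor genes (upper limit 3.05%), 118 cuticle protein genes (3.08%), 32 segmentation and Hox genes (10.9%) or 20 heat shock and chaperone genes (16.8%). IDR peaks lay at 1, 0, 2 and 8 genes of these 4 lists. Only the first pair of limits lies below the 8.38% of all genes.

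Repeated peaks also gathered around a few long genes. Counting the gene body and 2000 bp upstream, 2162 genes had a member, and 946 of these (43.8%) also had an IDR peak, against 27.7% of all genes. Tlk, a chromatin-linked kinase gene, bun, a TSC22 family growth gene, jing, a zinc finger gene, and ush, the Friend-of-GATA cofactor gene, had 7 each, and Pdp1 had 6, as did 5 further genes. Some of these matched the same replicate summit: with each summit used once, Tlk, bun and ush had 6, level with Pdp1, and jing kept 7. The number of IDR peaks in the same spans was 8 for Tlk, 5 for bun, 6 for jing, 12 for ush and 3 for Pdp1. Members were counted by span, whichever gene had the nearest start site. In the bun span the TSS-proximal members were nearest a start of CG43051, and in the ush span the 5' UTR members nearest one of cbt. The jing span held members nearest CG15233 and CG33919. Of the 7 in Tlk, 6 were in introns, and their pooled signal values ran from 45.6 to 74.6. In Pdp1, 3 members were at promoters and 3 in introns, with pooled signal values of 49.5 to 71.0, ranks of 2924 to 6968 in replicate 2 and ranks of 5187 to 9691 in replicate 3. The promoter members of Pdp1 lay at 3L:7855663-7856066, 3L:7866679-7867082 and 3L:7867378-7867781, of which the first had its summit 317 bp upstream of 1 annotated start site and the other two had theirs 488 bp downstream and 211 bp upstream of another. These spans are long, from 55912 bp in Pdp1 to 119787 bp in jing, and the counts are not scaled to length.

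Away from genes taken singly, repeated peaks lay near IDR peaks. Within 5000 bp of an IDR summit were 1060 members (47.4%, 45.3 to 49.5%), against 21.4% of arm bases, and within 1000 bp 334 (14.9%), against 5.49% of arm bases. The median distance was 5431 bp, and 392 members (17.5%) were more than 20000 bp from any IDR summit. The shares within 5000 bp were 48.6% for entries matched in replicate 2 only and 45.1% for those in replicate 3 only, so this nearness was found for the unrepeated entries as well. The arms carried 15.7 to 17.5 members per Mb, and chromosome 4 carried 11 members, or 8.16 per Mb. IDR peaks were also fewer on chromosome 4, at 13.4 per Mb against 28.1 to 33.6 on the other arms. Annotated transposons held 12 members (0.54%), against 5.93% of arm bases. They held 0.27% of IDR peaks and 0.38% of the other entries, so the low share was common to all 3 sets.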

How the data were processed

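The authors deposited relaxed peak lists for replicate 2, replicate 3 and their pool, and an IDR list, each on dm6 and dm3 (8 lists). Per the deposited text, peaks were called against a control, which was not analysed here. Aligner, caller, IDR threshold and their versions: not given in the sources used here. In every deposited list the authors' signal value is a score on the caller's scale, not a read count; a −log10 q-value by the authors stands beside it. Ranks were recomputed from the score within each list; depth is unknown. Replicate values are those of the nearest summit among the 10000 strongest entries.

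Genes came from Ensembl release 115 (13945 protein-coding genes on 6 arms), sequence from the RefSeq Release 6 genome of the same build. Summits within 500 bp of any TSS were TSS-proximal; distal ones went to the first class that applied, exons (coding before UTRs) before introns and intergenic sequence. The members, 28 gene lists and 18 motifs were chosen with earlier results of these data known; 14 list names were matched by synonym and 11 stayed unmatched. Genes named were fixed by rule: the strongest, weakest, best and least evenly ranked members, those just outside the edges, the genes with most members, up to 4 genes per list, and the strongest members that hold a motif near the summit. The 4 coding exon members, and the members with summits of their own named for their ranks, were added after their values were seen. The counting, class, interval and motif steps were tested on simulated data. Python 3.11.15, pandas 2.3.3, numpy 2.4.6, scipy 1.17.1 and matplotlib 3.10.9 were used. Alternatives changed the match distance, list depth, distance from IDR summits, ranks, duplicate intervals, replicates required, TSS window, motif window and build.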

Additional observations from a re-analysis of the deposited data

How the results depend on the processing

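The number of repeated peaks follows how deep the replicate lists are read: 579 with the 6000 strongest entries of each and 3820 with 15000. Requiring only 1 replicate gave 4266 without replicate 2 and 3520 without replicate 3. The TSS-proximal share was 48.7% with 6000 entries and 43.1% with 15000, and 43.1 to 44.2% with 1 replicate left out. It was 35.9% with a TSS window of 250 bp and 57.9% with 1000 bp, where IDR peaks had 45.6 and 65.4%. Genes with a promoter member numbered 350 with 6000 entries, 1773 with 15000, and 1614 to 2102 with 1 replicate left out. The PAR bZIP site was in 0.76% of 100 bp and 4.61% of 400 bp windows, and the DRE site in 1.97 and 4.88%, as a narrower or wider window must; the DRE share was 2.76% with 6000 entries. Coding exons held 0.35% of members with 6000 entries, 4.74% with 15000 and 7.24% without replicate 3, and the GAGA share was 4.66% with 6000 entries and 4.64% without replicate 2. The cause of these shifts was not tested.

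Under match distances of 100 and 500 bp, 1000 bp kept from IDR summits, pooled ranks down to 7000 and 1 entry per interval, all 5 main results stayed within 1.5 times (counts) or within their interval (shares). The dm3 lists gave 2315 members. Settings added after seeing the data left 2118 members with own summits only and 2205 with each replicate summit used once, with a TSS-proximal share of 45.6 and 46.1%. No paired analysis was possible because the study has 1 group. Peak lists without read counts leave the precision of each signal value unknown.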
